A study of Mus musculus with 6 samples.

Results

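In primary mouse hepatocytes given siRNA against RetSat, the mRNA of both short pentraxins, Crp and Apcs, was at 39.4% and 46.2% of control. That of the serum amyloid Saa4 was higher than in control. Crp and Apcs each passed an adjusted p of 0.05 in 17 of 19 alternative fits, and Saa4 in 9 of 19. Saa3, Hp and Itih4 showed smaller differences, with no overlap between the groups, that did not pass the test, and the values of Saa1, Saa2, Orm1 and Lcn2 overlapped. The 10 genes described here, Crp, Apcs, Saa1, Saa2, Saa3, Saa4, Hp, Orm1, Lcn2 and Itih4, encode secreted proteins of the acute phase response and were listed by name, out of 19938 named genes measured. For each, the probe set was the brightest among those annotated with that gene symbol alone; each of the 10 had 1 such probe set and none shared with another symbol. All 10 were brighter, on average over the arrays, than the 40th percentile of all genes, at a log2 intensity of 4.33.

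Hepatocytes of wild-type C57BL/6J mice were transfected overnight with a control siRNA (siControl) or with siRNA against RetSat (siRetSat), with 3 independent transfections each. According to the labels the donor was 1 male aged 10 weeks, the cells were kept on collagen in medium with 25 mM glucose, each well received 1 nmol of siRNA from Dharmacon with Lipofectamine, and RNA was harvested 48 h after the medium change of the following morning. The study's methods give Eurogentec as the supplier. On these arrays no group received a second siRNA against RetSat, so that off-target effects of the siRNA and effects of RetSat loss cannot be told apart from these values alone, and all p-values measure the spread between wells of cells from 1 animal. From each well 100 ng of RNA was put on an Affymetrix Mouse Gene 1.0 ST array, and values are normalised log2 intensities, whose precision is limited by the number of arrays.

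The acute phase response is the change in the plasma proteins made by the liver during infection or injury. Interleukin-6 acts through its receptor and the shared subunit gp130 on STAT3, and interleukin-1 and TNF act through NF-kB and C/EBP factors, on the promoters of hepatocyte genes. Pentraxins are ring-shaped pattern recognition proteins, serum amyloid A proteins are apolipoproteins of high density lipoprotein, and haptoglobin, lipocalin 2 and orosomucoid bind haemoglobin, siderophores and small lipophilic molecules.

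The targeted gene and the cell type were checked first. Retsat had log2 intensities of 6.80, 7.04 and 7.01 in siControl and of 4.62, 4.83 and 4.81 in siRetSat, which left 21.8% of the control level. All 10 hepatocyte markers were bright in siControl, with Alb between 12.90 and 13.10 on all 6 arrays. Of these 10 markers, Tat and Cps1 fell, by 0.72 and 0.82 on the log2 scale (limma, adjusted p = 0.0452 and 0.0291), and none rose. Apob and Asgr1 differed by -0.36 and -0.40 without overlap and did not pass (adjusted p = 0.121 and 0.148 from limma). The siRetSat values lay below all controls in 5 of the 10 and above in 0, beside 19.5% of all genes separated either way. The mean log2 intensity of the 10 ranged from 9.74 to 9.92 in siControl and from 9.52 to 9.58 in siRetSat. At an unadjusted p under 0.05, 4 passed by limma and 5 by the methods' t-test, which called 0 after adjustment. Of 14 markers of Kupffer cells and macrophages, 10 were dim in siControl, among them the Kupffer cell markers Clec4f, Timd4 and Vsig4, and Cd68, Cd14, Mpeg1 and C1qa were not. Cd68, the brightest, was at 11.15, 11.24 and 11.03 in siControl and at 11.54, 11.49 and 11.59 in siRetSat, with no overlap (limma, adjusted p = 0.0563). Mpeg1 and Cd14 rose, by 1.72 and 0.59 (limma, adjusted p = 0.000788 and 0.0208), and the mean log2 intensity of the 14 ranged from 4.79 to 4.90 in siControl and from 5.02 to 5.14 in siRetSat. All 10 neutrophil markers were dim in siControl, and none was called by limma. At an unadjusted p under 0.05, 1 neutrophil and 1 endothelial marker passed, and the methods' t-test called none of either list after adjustment. Without single arrays, Tat passed in 1 of 6 fits, Cps1 and Cd14 each in 2 and Mpeg1 in all 6. Of 10 stellate cell and fibroblast markers, Acta2 fell and 9 did not pass, of 6 bile duct markers Sox9 rose, though in only 1 of 6 fits without a single array and not by the methods' t-test, and 5 did not pass, and none of 10 endothelial markers was called by limma. On arrays of whole wells, fewer cells of a type and less RNA per cell cannot be told apart.

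At an adjusted p under 0.05 over all genes (limma), 1 of the 10 acute phase genes rose and 2 fell, whereas 7 did not pass. Among all 19938 genes, 1.91% rose and 1.66% fell, together 3.56%. The median log2 fold change of the 10 genes was -0.02, beside 0.00 for all genes, since members lay on both sides of 0. In 6 of the 10 genes the siControl and siRetSat values did not overlap, with siRetSat below in Crp, Apcs, Hp and Itih4 and above in Saa3 and Saa4. Such a separation was seen in 19.5% of all genes. At the study's cutoffs on the unadjusted p and on the size of the fold, 5 of the 10 genes passed with limma, 2 lower and 3 higher, beside 9.05% of all genes. With 3 arrays against 3, an exact two-sided permutation test cannot give a p below 0.1, the value for each of the 6 separated genes.

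**Figure D1:**
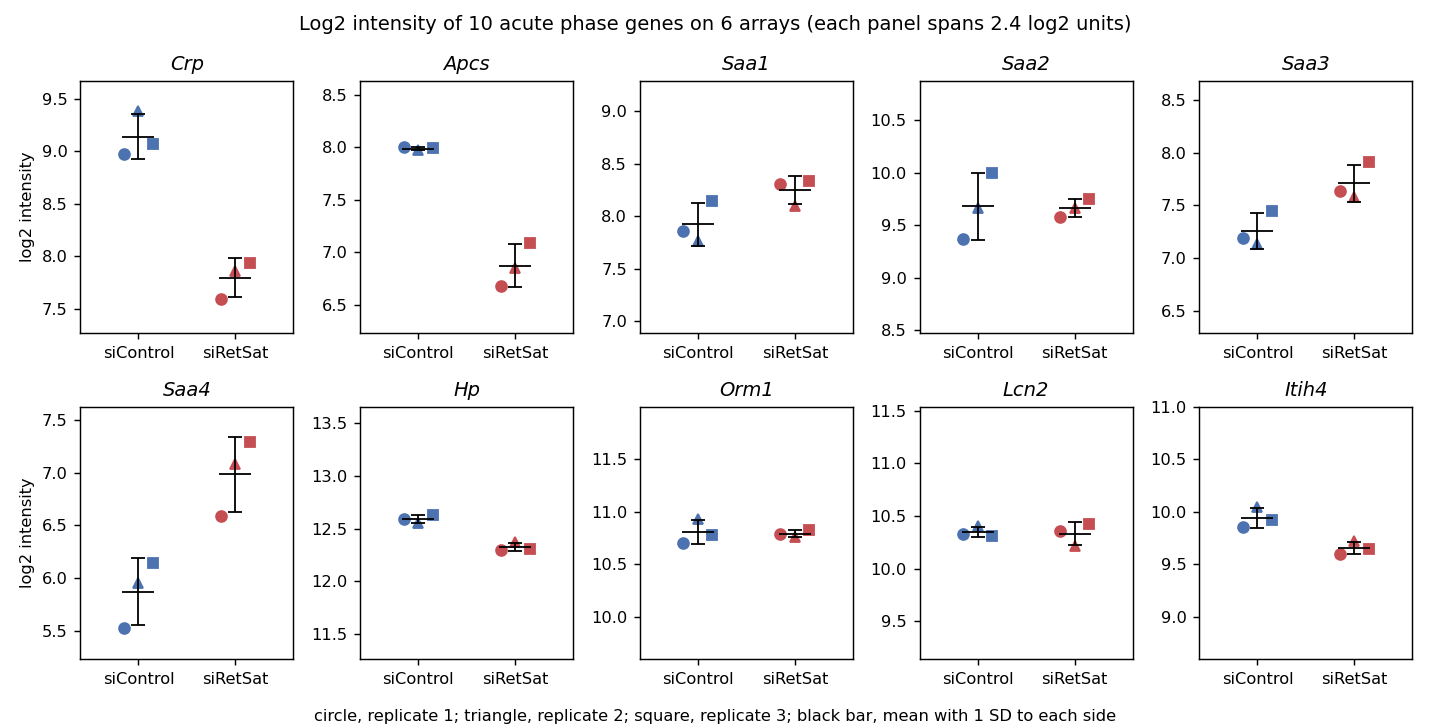
Each panel shows the log2 intensity of 1 acute phase gene on the y axis for the 3 siControl arrays (blue) and the 3 siRetSat arrays (red), with the same height in log2 units in every panel; black bars give the mean and 1 SD to each side. The pentraxins Crp and Apcs lie far lower in siRetSat and Saa4 far higher, whereas the values of Saa2, Orm1 and Lcn2 overlap between the groups.

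Crp encodes C-reactive protein, which binds phosphocholine on microbes and damaged cells and which is only a modest acute phase reactant in mice. Its log2 intensities were 8.97, 9.38 and 9.07 in siControl against 7.59, 7.86 and 7.94 in siRetSat. The lowest control array thus lay far above the highest siRetSat array. The mean went from 9.14 ± 0.21 to 7.80 ± 0.18 (SD, n = 3 each), which is -1.34 on the log2 scale with a standard error of 0.138 (limma, adjusted p = 0.00243), and 39.4% of the control signal was left. Among the 19938 genes it ranked 18 from the lowest log2 fold change.

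Apcs encodes serum amyloid P component, the pentraxin that binds amyloid fibrils and is the main acute phase pentraxin of the mouse. Its log2 intensities were 8.0, 7.97 and 7.99 in siControl against 6.68, 6.85 and 7.09 in siRetSat. The control arrays were nearly level, and the siRetSat arrays spread more widely at a clearly lower level. The mean went from 7.99 ± 0.02 to 6.87 ± 0.21 (SD, n = 3 each), or by -1.11 on the log2 scale with a standard error of 0.114 (limma, adjusted p = 0.00243), or 46.2% of control. Crp and Apcs each passed in all 6 fits without a single array and in 9 of 10 other settings. They did not pass without both arrays numbered 2 (adjusted p = 0.108 and 0.150 from limma) or by the methods' t-test after Benjamini-Hochberg adjustment over all genes (adjusted p = 0.0671 and 0.0557).

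Both pentraxin genes are direct neighbours among the protein-coding genes of the GRCm38.p6 annotation, which is used here only for gene order and upstream sequence because no build is named for the arrays. The genes next to them did not pass. Dusp23, a phosphatase gene on the side of Crp, differed by -0.06 in log2 intensity (limma, adjusted p = 0.948). Olfr16, an olfactory receptor gene on the side of Apcs, differed by 0.02 at a dim mean of 3.37 in siControl. The long pentraxin Ptx3, a relative made mainly outside hepatocytes, was also dim, at 3.39 in siControl and 3.52 in siRetSat. None of 13 measured family relatives of the 10 genes was called by limma or by the methods' t-test after adjustment (2 and 4 at an unadjusted p under 0.05), with a median log2 fold change of -0.10. The neuronal pentraxin Nptx2 differed by -0.53 in log2 intensity (limma, adjusted p = 0.0558).

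**Figure D2:**
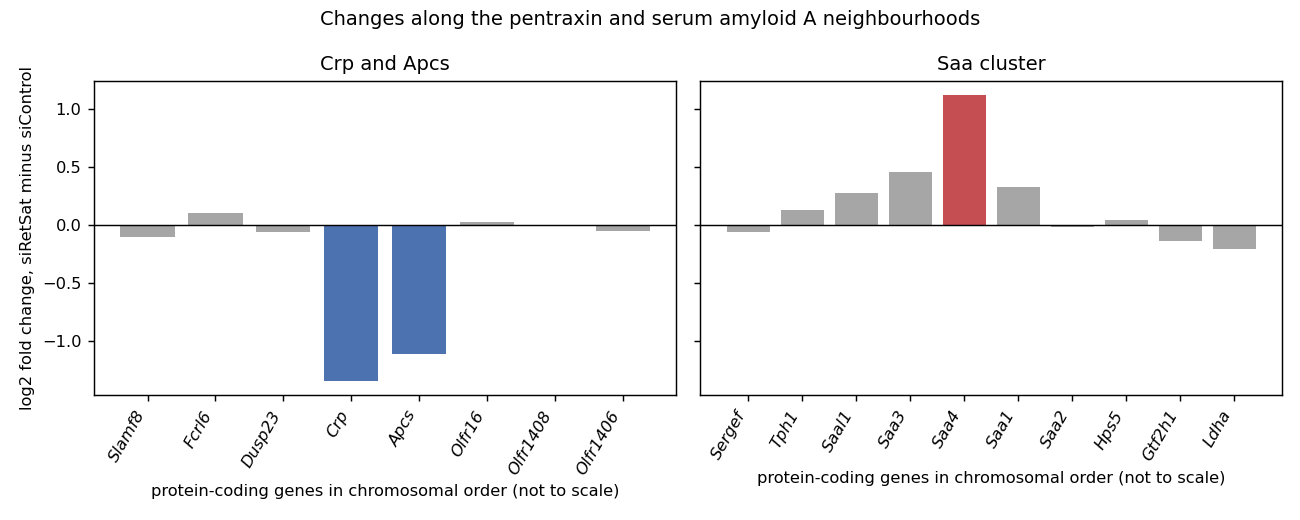
Bars give siRetSat minus siControl in log2 intensity for protein-coding genes in chromosomal order, not to scale, around the pentraxin pair (left) and the serum amyloid A cluster (right); coloured bars passed an adjusted p of 0.05. Crp at -1.34 and Apcs at -1.11 stand beside flanking genes between -0.10 and 0.11, and Saa4 at 1.12 stands between Saa3 at 0.45 and Saa1 at 0.33. Of the genes flanking the pentraxins, all but Dusp23 were dim, so that a fall in them could be hidden.

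Of the 4 serum amyloid A genes, 1 rose and 3 did not pass. The differences between these genes were not tested. Saa4 encodes the constitutive member, which is present in plasma without inflammation. Its log2 intensities were 5.52, 5.95 and 6.14 in siControl against 6.59, 7.08 and 7.29 in siRetSat. All siRetSat arrays lay above all control arrays, although within each group the array numbered 1 was the lowest. The mean went from 5.87 ± 0.32 to 6.99 ± 0.36 (SD, n = 3 each), a 2.17-fold rise, or 1.12 on the log2 scale with a standard error of 0.209 (limma, adjusted p = 0.0272). The call did not pass without siControl 1 (adjusted p = 0.0665), siControl 2 (0.113), siRetSat 2 (0.127) or siRetSat 3 (0.0822), all from limma, while the log2 fold change stayed between 0.94 and 1.32 over the 6 fits without a single array. It also did not pass without both arrays numbered 2 (adjusted p = 0.430) or 3 (0.110), with each array centred on its median (0.0596), with background subtraction (0.164) or over all probe sets (0.0945) by limma, nor by the methods' t-test (0.207). The call passed in 6 of 10 other settings, among them array weights (adjusted p = 0.000427) and a replicate block (0.000386), both from limma.

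**Figure D3:**
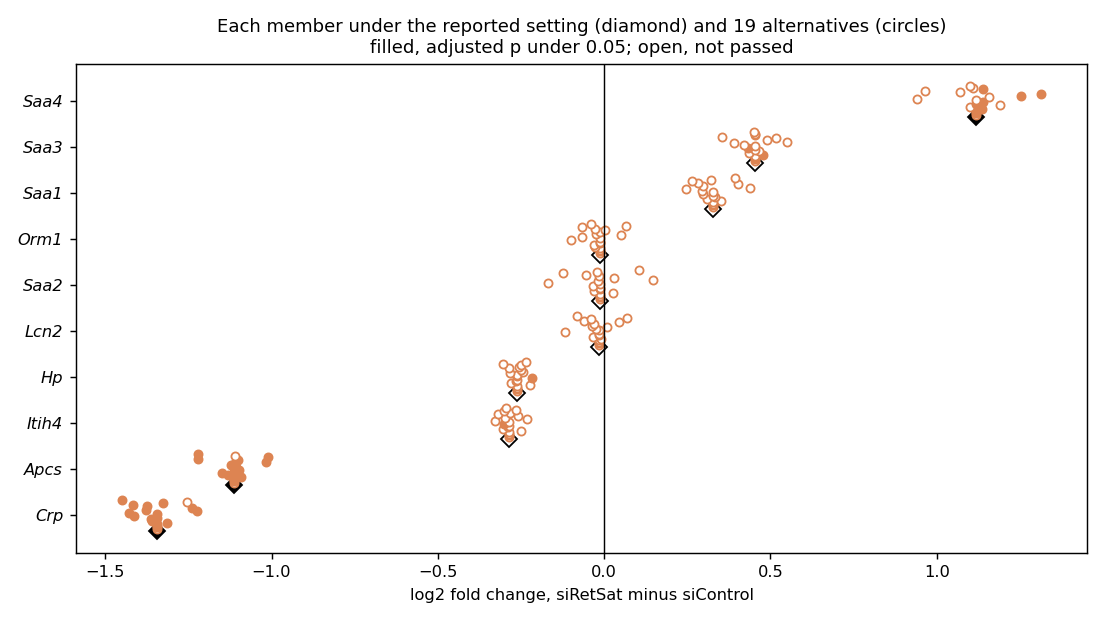
Each gene is plotted along an x axis of siRetSat minus siControl in log2 intensity, in the reported fit (diamond) and in 19 alternative fits (circles), filled where the adjusted p was under 0.05 and open where it was not. Crp and Apcs stay at -1.01 or lower and Saa4 at 0.94 or higher, with open circles for Saa4 in 10 of the 19 alternatives, while Saa2, Orm1 and Lcn2 fall on both sides of 0.

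Saa3, which in mice is made by macrophages and adipocytes as well as by stimulated liver cells, had log2 intensities of 7.19, 7.13 and 7.45 in siControl and of 7.64, 7.58 and 7.91 in siRetSat. The groups did not overlap, but the difference of 0.45 (95% interval 0.16 to 0.74, adjusted p = 0.112 from limma) did not pass. It passed in 3 of 10 other settings, with another quantile normalisation (adjusted p = 0.0467), array weights (0.0230) and a replicate block (0.0122), all from limma. Of the 14 macrophage markers given above 2 rose and none fell, and their median log2 fold change was 0.09. Their part in this difference was not tested.

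Saa1 and Saa2 encode the inducible acute phase serum amyloids, and the pair is so alike that probes of 1 gene may detect the other. Saa1 had log2 intensities of 7.86, 7.76 and 8.15 in siControl and of 8.31, 8.10 and 8.34 in siRetSat. The lowest siRetSat array lay below the highest control array, and the difference was 0.33 (95% interval 0.04 to 0.61, adjusted p = 0.267 from limma). Saa2 had values of 9.37, 9.67 and 10.00 in siControl and of 9.58, 9.67 and 9.75 in siRetSat, with the siRetSat arrays inside the range of the controls. Its difference was -0.01 (95% interval -0.37 to 0.34, adjusted p = 0.992 from limma), and the values remain compatible with a change of any size within this interval. In chromosomal order the log2 fold changes ran 0.45 for Saa3, 1.12 for Saa4, 0.33 for Saa1 and -0.01 for Saa2. The next genes outward were Saal1, at 0.27 (adjusted p = 0.288 from limma), and Hps5, at 0.05 (adjusted p = 0.943).

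The upstream sequences of the members whose groups differed most in these 2 families are shown because the pentraxins fell together and Saa4 and Saa3 lay higher together. They are the 250 bases before the start used for each promoter window on GRCm38.p6, written 5′ to 3′ in the direction of the gene. For Crp, Apcs and Saa4 this start is the outer end of the RefSeq gene. For Saa3 it lies inside the RefSeq gene, which spans chr7:46711998-46719615, so that its window is not upstream of the whole gene. Capitals mark exact matches, on either strand, to TTGCNNAA (C/EBP), TTCNNNGAA (STAT) and GGNNTTTCC (NF-kB).
Crp, chr1:172697806-172698055, plus strand: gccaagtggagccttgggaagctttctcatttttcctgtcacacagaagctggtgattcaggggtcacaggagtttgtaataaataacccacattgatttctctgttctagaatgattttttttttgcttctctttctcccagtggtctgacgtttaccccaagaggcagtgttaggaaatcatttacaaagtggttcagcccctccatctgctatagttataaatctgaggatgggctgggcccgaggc
Apcs, chr1:172895055-172895304, minus strand: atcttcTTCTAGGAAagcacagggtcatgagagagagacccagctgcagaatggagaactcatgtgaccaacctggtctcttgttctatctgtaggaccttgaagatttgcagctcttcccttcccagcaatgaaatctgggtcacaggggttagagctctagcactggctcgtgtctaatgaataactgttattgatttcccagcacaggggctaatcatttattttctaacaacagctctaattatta
Saa4, chr7:46732604-46732853, minus strand: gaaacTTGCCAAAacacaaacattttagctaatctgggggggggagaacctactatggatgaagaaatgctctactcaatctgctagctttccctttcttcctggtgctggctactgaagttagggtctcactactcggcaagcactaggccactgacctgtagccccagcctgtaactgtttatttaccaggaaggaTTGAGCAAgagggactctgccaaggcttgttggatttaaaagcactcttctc
Saa3, chr7:46715677-46715926, minus strand: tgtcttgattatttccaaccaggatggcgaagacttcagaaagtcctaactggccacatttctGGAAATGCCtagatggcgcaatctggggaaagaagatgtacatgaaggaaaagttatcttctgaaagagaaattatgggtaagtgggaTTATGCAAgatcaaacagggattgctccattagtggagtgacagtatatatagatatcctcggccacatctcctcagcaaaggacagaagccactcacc
The Crp window held no match to these letters, and that of Apcs held 1 STAT match at its far end. The Saa4 window held 2 C/EBP matches, and that of Saa3 held 1 C/EBP and 1 NF-kB match. Counted over windows that also take in the 50 bases after the start, 8 of the 10 members had a sequence, all except Hp and Orm1. The start used for Saa1, like that for Saa3, lay inside the RefSeq gene. Of these 8 windows, 5 held a C/EBP match (Saa1, Saa2, Saa3, Saa4 and Lcn2), 2 a STAT match (Apcs and Itih4), 1 an NF-kB match (Saa3) and 0 an HNF1 match to GTTAATNAT. Among 32851 windows of all genes the shares were 10.8%, 8.30%, 5.82% and 0.801%. The windows of Saa1 and Saa2 were alike at 95.7% of 300 bases and each held the C/EBP match TTGCACAA, whereas other pairs of members matched at 57.0% to 64.7%. Such matches describe the letters of these windows and say nothing of binding.

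Hp encodes haptoglobin, which captures free haemoglobin. Its log2 intensities were 12.59, 12.55 and 12.63 in siControl against 12.30, 12.37 and 12.31 in siRetSat. These values were tight and did not overlap, at 83.3% of control. The difference of -0.26 (95% interval -0.45 to -0.08, adjusted p = 0.154 from limma) did not pass. It passed in 3 of 10 other settings of the whole-array fit, with array weights (adjusted p = 0.0488), background subtraction (0.0397) and a variance trend (0.0129), all from limma.

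Itih4, a plasma protein of the inter-alpha-trypsin inhibitor family that interleukin-6 induces, had log2 intensities of 9.86, 10.05 and 9.92 in siControl and of 9.60, 9.72 and 9.65 in siRetSat. The groups did not overlap. The difference of -0.29 (95% interval -0.49 to -0.08, adjusted p = 0.166 from limma) did not pass, except with array weights (adjusted p = 0.0206) and a variance trend (0.0452). Its relative Itih3, another heavy chain gene, differed by -0.43 in log2 intensity (limma, adjusted p = 0.0862), whereas the heavy chain genes Itih1 and Itih2 had -0.05 and 0.09 and Ambp, which encodes their bikunin partner, had -0.13.

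The lipocalins did not separate the groups. Orm1, which encodes the drug-binding alpha-1-acid glycoprotein, had log2 intensities of 10.70, 10.93 and 10.78 in siControl and of 10.79, 10.76 and 10.82 in siRetSat. The siRetSat arrays lay within the control range, and the difference was -0.01 (95% interval -0.22 to 0.20, adjusted p = 0.987 from limma). Its paralogs Orm2 and Orm3, which may share probes with it, had log2 fold changes of 0.12 and -0.04, and Orm3 was dim. Lcn2, whose product withholds iron from bacteria by binding siderophores, had values of 10.33, 10.40 and 10.31 in siControl and of 10.36, 10.21 and 10.42 in siRetSat. The siRetSat arrays reached to both sides of the controls, with a difference of -0.02 (95% interval -0.23 to 0.19, adjusted p = 0.982 from limma). Neutrophils also make Lcn2, and all 10 of their markers were dim in siControl, the highest, Camp, at a mean of 4.13.

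**Figure D4:**
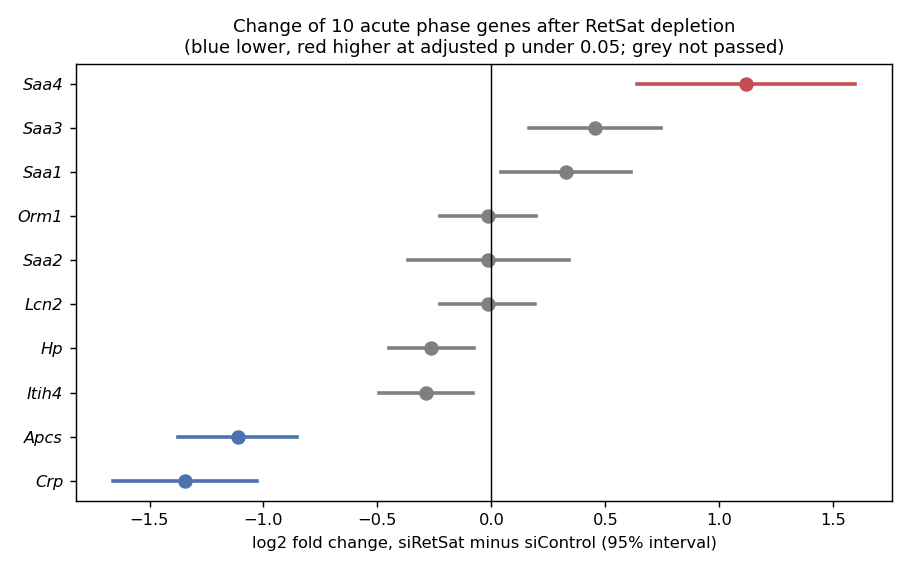
The x axis is siRetSat minus siControl in log2 intensity, with 1 point for each of the 10 genes, ordered by size, with lines for the 95% interval from limma; blue points were called lower, red higher, and grey points did not pass. The intervals of Crp, Apcs and Saa4 stay farthest from 0, and those of Saa2, Orm1 and Lcn2 include it.

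Acute phase proteins outside the 10 were also divided. Of 18 measured genes that rise in the acute phase, 2 rose, 4 fell and 12 did not pass, with a median log2 fold change of 0.04. The fibrinogen chains Fgg, Fga and Fgb, which form the clot, fell by 1.08, 0.65 and 0.42 on the log2 scale (limma, adjusted p = 0.00100, 0.0168 and 0.0409). Slc39a14, the zinc and iron importer that interleukin-6 induces in liver, fell by 0.50 (limma, adjusted p = 0.0199). Hamp, which encodes the iron hormone hepcidin, rose from values of 6.54, 6.72 and 7.0 to 7.94, 7.86 and 8.31, and the metallothionein Mt2 rose by 0.60 (limma, adjusted p = 0.00467 and 0.0255). Fgg and Hamp passed in all 6 fits without a single array, but neither passed without both arrays numbered 2, and Hamp did not pass with background subtraction or by the methods' t-test. After adjustment the methods' t-test called 1 of the 18 genes, against 6 by limma. Without single arrays, Fga failed without siControl 2, siControl 3 or siRetSat 2, and Slc39a14 failed without these or siRetSat 3, while Fgb passed only without siControl 1 and Mt2 only without siRetSat 1. Of 14 proteins that fall in the acute phase, with a median of 0.01, 1 fell and none rose, beside 3.56% of all genes called. The exception was Ahsg, the calcification inhibitor fetuin-A, at -0.52 (adjusted p = 0.0196 from limma), which failed without siControl 2, siControl 3, siRetSat 2 or siRetSat 3. Albumin (Alb) had a log2 fold change of 0.07 and transthyretin (Ttr) one of -0.10.

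Upstream of these genes, 1 of 18 measured receptor and signalling genes was called, beside 3.56% of all genes. Il6st encodes gp130, the subunit shared by the receptors of the interleukin-6 family, and had log2 intensities of 9.41, 9.69 and 9.49 in siControl and of 8.77, 8.98 and 8.96 in siRetSat. All siRetSat arrays lay below all controls, with a difference of -0.63 and a standard error of 0.108 (limma, adjusted p = 0.0206). This call did not pass without siControl 2, siControl 3, siRetSat 2 or siRetSat 3, or without both arrays numbered 2 or 3. It passed in 6 of 10 other settings. The failures were the methods' t-test, arrays centred on their median, background subtraction and the fit over all probe sets. Il6ra, the ligand-binding subunit, differed by 0.04, Stat3 by -0.18 (adjusted p = 0.467 from limma) and Socs3, the feedback inhibitor that STAT3 induces, by -0.24 (adjusted p = 0.517 from limma). The next smallest p-values belonged to Irak2 at -0.27, Il1rn at 0.31 and Myd88 at 0.21, with adjusted p = 0.227, 0.287 and 0.356 from limma.

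None of 10 measured transcription factors of acute phase genes was called by limma. Relb, at -0.19, had the smallest p (adjusted p = 0.336 from limma) and was 1 of 10 at an unadjusted p under 0.05, and 0 of 10 were called by the methods' t-test after adjustment. Cebpb and Rela had log2 fold changes of 0.04 and -0.15, and Cebpd was dim. Of 7 measured cytokines that induce these genes, 6 were dim in siControl, including Il6 at 2.44 and Il1b at 3.43, and none was called by limma or by the methods' t-test after adjustment (2 and 1 at an unadjusted p under 0.05). Lif, which was not dim, had log2 intensities of 5.29, 5.30 and 5.18 in siControl and of 5.46, 5.53 and 5.52 in siRetSat. Its groups did not overlap, but the difference of 0.25 did not pass (adjusted p = 0.200 from limma). Tnf was at 3.26 in siControl and 3.75 in siRetSat (adjusted p = 0.143 from limma). Of 14 receptors and partners of the 10 products, 1 rose, Tlr2, beside 3.56% of all genes called in either direction. Tlr2, a receptor for bacterial lipoproteins that also binds serum amyloid A, differed by 0.63 (adjusted p = 0.0196 from limma). This call failed without siControl 1, siControl 2, siRetSat 2 or siRetSat 3. Cd36 and Tlr4 differed by 0.61 and 0.86 without overlap, but did not pass (adjusted p = 0.133 and 0.147 from limma), and Tlr4 was dim in siControl. No gene of this list lay lower without overlap. At an unadjusted p under 0.05, 3 of the 14 passed by limma and 1 by the methods' t-test.

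**Figure D5:**
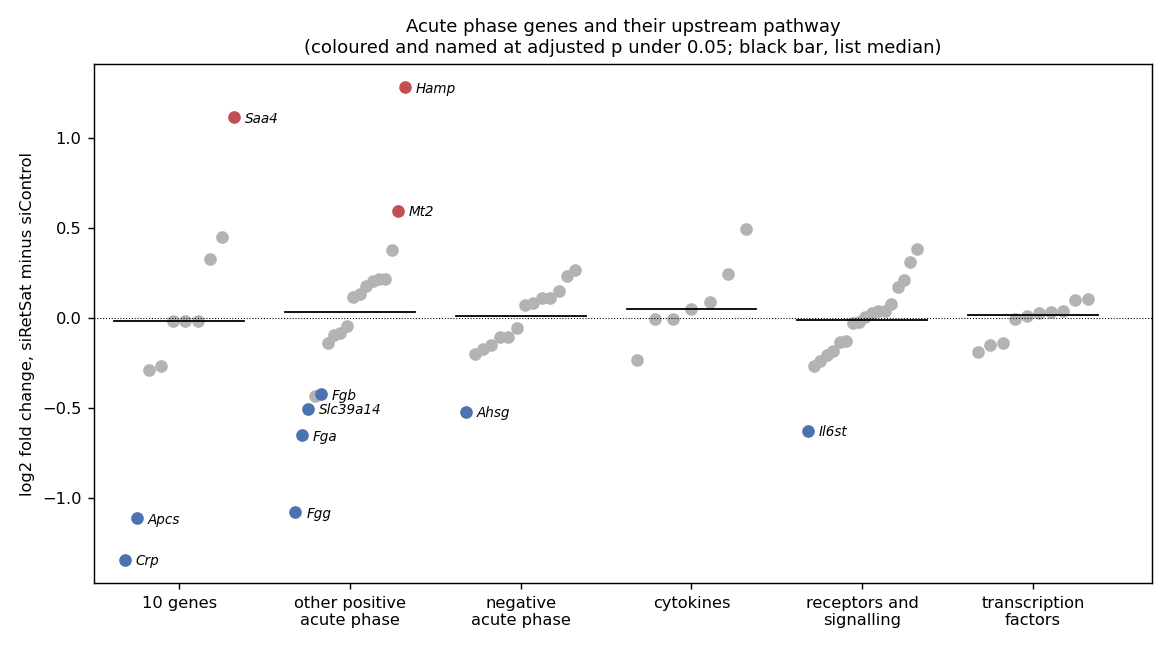
Each dot is 1 gene, and the y axis is siRetSat minus siControl in log2 intensity, for the 10 acute phase genes and 5 lists of the pathway; coloured dots with names passed an adjusted p of 0.05 and black bars are list medians. Called genes lie on both sides of 0 among the acute phase proteins, and all list medians lie between -0.02 and 0.05.

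The member with the widest range over the 6 arrays was Crp, at 1.79 log2 units. Among 497 other genes above the 40th percentile of brightness with a range of at least 1 unit, the 5 profiles most like it belonged to Cyp3a13 and Cyp2j5 (cytochrome P450 enzymes), Csnk1g3 (a casein kinase), Txnip (a thioredoxin inhibitor) and Nrg4 (a growth factor). Pearson's r over the 6 arrays, which share the split into siControl and siRetSat, was 0.9975, 0.9971, 0.9947, 0.9942 and 0.9935. Their log2 fold changes were -1.43, -1.21, -0.81, -1.01 and -1.22. Cyp3a13, for example, had log2 intensities of 8.98, 9.34 and 8.99 in siControl and of 7.53, 7.67 and 7.82 in siRetSat.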

How the data were processed

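RNA from 3 siControl and 3 siRetSat transfections was measured on Affymetrix arrays. The deposited values are log2 intensities that the authors normalised by RMA. The submitters' processing notes also name Partek 6.6, while an annotation version was not given in the sources used here. In the table were 35556 probe sets, 21789 annotated with a single symbol, 1621 with more than 1 and 12146 unnamed. Of the probe sets with a single symbol, 21698 were matched to RefSeq by Entrez ID and took the RefSeq symbol. The brightest probe set stood for each of 19938 genes, with array medians of 4.29 to 4.50. Groups were compared with limma 3.58.1 in R 4.3.3 (lmFit, eBayes, Benjamini-Hochberg over all genes, adjusted p under 0.05). The fit was also run on simulated data with independent noise for each gene and array. Such data cannot show how a pattern shared by arrays affects the calls. A gene was dim at or below the 40th percentile of the mean.

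The 10 genes and all lists were chosen with earlier results of these data known. Named were RetSat, the 10 genes, up to 4 genes of each list with the smallest p, all called list genes and the 5 profiles most like the member with the widest range. Neighbours, paralogs, Alb, Ttr, Il6ra, Stat3, Socs3, Cebpb, Cebpd, Rela, Il6, Il1b, Ptx3, Camp and the macrophage markers C1qa, Clec4f, Timd4 and Vsig4 were added for their roles after their values were seen. Alternatives were other normalisations, filters, probe set rules and tests, a replicate block, and fits without arrays.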

Additional observations from a re-analysis of the deposited data

How the results depend on the processing

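Of the 10 acute phase genes 3 were called in the reported limma fit, and this number was 6 with array weights, 5 with a mean-variance trend and 0 with the methods' t-test after adjustment, where 6 passed at an unadjusted p under 0.05. Leaving out arrays gave 0 to 3, with 2 to 3 for single arrays and 0 without both arrays numbered 2 (4 at an unadjusted p under 0.05). Over all genes 710 were called, against 2905 with array weights, 1078 with the trend, 196 with the methods' t-test, 445 with background subtraction, 342 with arrays centred on their median and 329 over all probe sets. Leaving out arrays gave 15 to 822 genes, among them 207 without siControl 2, 226 without siRetSat 2, 294 without siControl 3, 317 without siRetSat 3, 111 without both numbered 3 and 15 without both numbered 2. The same-number correlations of deviations from the group means were 0.547, 0.0398 and 0.541 for numbers 1, 2 and 3. Between siControl 3 and siRetSat 1 the correlation was -0.567, and between siControl 1 and siRetSat 3 it was -0.526. Arrays numbered 1 and 3 thus correlated best with their own number, and those numbered 2 did not. The reported fit did not pair the arrays by number, which leaves such a shared pattern in its spread. With the replicate block 4 of the 10 genes and 1541 of all genes were called. The uncalled differences near 0 changed sign: Saa2 was 0.026 with another quantile normalisation and -0.17 to 0.15 without arrays, Lcn2 -0.08 to 0.07 and Orm1 -0.065 to 0.065 without arrays. Of 190 refits of single members, 158 kept direction and side of the threshold, 14 lost the call, 8 gained it and 10 changed sign. The cause of these differences was not tested, except that fits without arrays hold fewer samples.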
